A study of Oryza sativa with 3 samples.

Results

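Type 2C protein phosphatases (PP2C) remove phosphate from serine and threonine residues and need magnesium or manganese ions to do so. Flowering plants carry far more of them than animals do. The best known group, clade A, acts in the response to abscisic acid, the hormone of drought and dormancy: without the hormone these enzymes hold SnRK2 kinases inactive, and hormone-bound PYL receptors inhibit them and free the kinases. In Arabidopsis other members act on stem cell signalling, cell expansion and immunity.

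The family was followed across 3 tissues of rice (Oryza sativa). Members were the genes with a single identifier whose deposited description names a protein phosphatase 2C. There were 64 such genes among 51597 with a single identifier found once in every library, and the same 64 were found in the leaf blade, node and stem tables. No row merging several identifiers carried it, and the merged row with the clade A gene LOC_Os01g62760 had no description at all, so family genes in merged rows are not counted. The description "protein phosphatase 2C containing protein" was given to 1 member, LOC_Os01g36080, and the plain family name to the others. The files assign no clades, so clade A membership and the symbols XB15 and PP18 rest on locus identifiers written from general knowledge of rice.

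Each tissue was sampled by 1 RNA library of total RNA. The leaf blade library (blade below), the node library (nodes I and II, the uppermost joints where leaves attach to the stem) and the stem library came from plants grown at 29 °C with 12 h of light a day. No cultivar, mutation or treatment was labelled for any of the 3. The tissues were described as mature, and the sources used here give no growth stage. Values are FPKM, fragments scaled to transcript length and library size, with the interval deposited beside each value. This interval was read as covering counting error only. There was 1 library per tissue, so differences stand without replication and no p-values are given. A gene was called higher or lower at 4-fold or more on the scale of FPKM + 1.

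The tissue labels were set beside defining markers. Antenna protein and Rubisco genes summed to 6504 FPKM in blade, 470.4 in node and 3415 in stem. Within that sum CAB2R was higher in stem, at 2741 FPKM against 1999 in blade, while RBCS2 had 228 in blade and 6.78 in stem. Transporters known from nodes (LSI2, LSI3, HMA2 and ZIP3) summed to 0.858, 390 and 65.9 FPKM, and OSH15 with the secondary wall genes CESA4, CESA7 and CESA9 to 0.587, 199 and 489. Most of this last sum was OSH15, with 145 FPKM in node and 411 in stem. CESA7 and CESA9 were also higher in stem, but CESA4 was higher in node, at 21.1 FPKM against 18.0. Of 5 floral organ genes, MADS4 was listed at 0 in all 3 libraries, while MADS16 had 8.93 FPKM in blade, 91.3 in node and 38.0 in stem. MADS1 went the other way, with 11.7, 0.391 and 0.457 FPKM. The sum of the 5 was 22.03, 98.0 and 39.96 FPKM. The part of floral tissue in any result was not tested. In such bulk RNA, fewer cells of a type and less RNA per cell cannot be told apart. Fragments implied by the intervals summed to about 39880000, 39960000 and 43160000 in the same order.

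Most of the family was expressed in every tissue. Of the 64 members, 57 (89.1%) reached 1 FPKM in at least 1 tissue, against 38.9% of all genes with a single identifier. All 3 tissues reached 1 FPKM for 53 members (82.8%, against 27.5% of all genes), and 49 (76.6%, against 23.7%) reached 10 FPKM somewhere. The 57 had a median of 21.3 FPKM in blade, 19.8 in node and 17.2 in stem, where all genes compared had medians of 8.72, 10.03 and 8.11. Levels were spread rather than dominated by a few genes. The 5 most abundant members held 26.1% of the family's summed FPKM in blade, 33.1% in node and 33.5% in stem, and the sums themselves were 1456, 1830 and 1776 FPKM. The interval of the median member extended by 6.03%, 6.36% and 5.38% of the value in each direction.

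**Figure D1:**
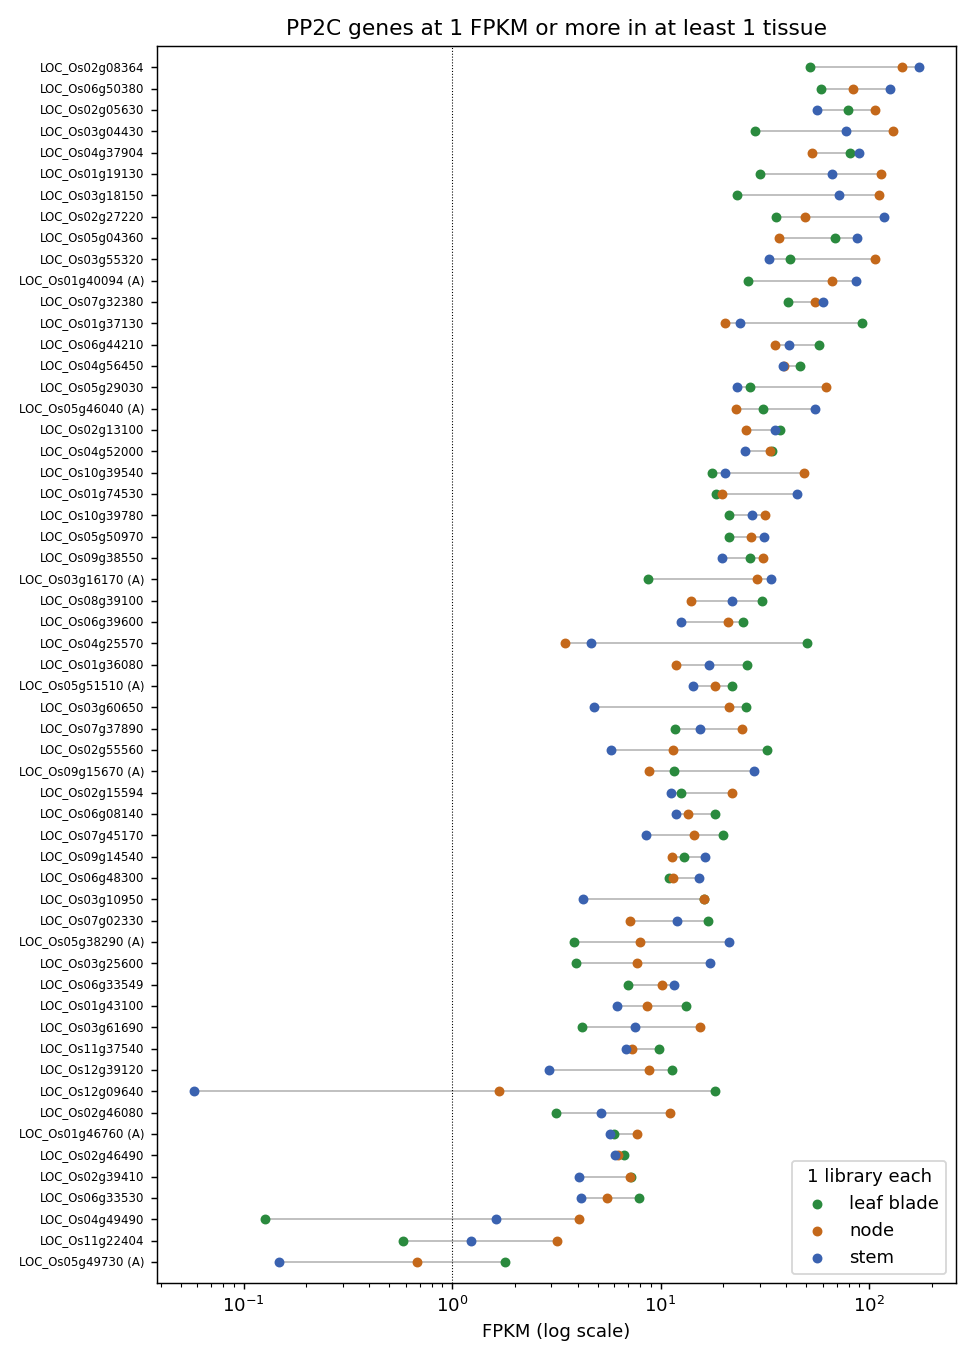
FPKM on a log axis for the 57 PP2C genes compared, ordered by mean level, with 1 point per library, a grey line joining the tissues and (A) marking clade A. Most lines are short and lie between 5 and 100 FPKM, and the longest belong to LOC_Os12g09640, LOC_Os04g49490, LOC_Os04g25570 and LOC_Os05g49730.

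Of the 57 members, 24 were highest in blade (42.1%, against 36.8% of all genes), 16 in node (28.1%, against 40.9%) and 17 in stem (29.8%, against 22.4%). The most abundant member was not the same in every tissue. LOC_Os02g08364 (chromosome 2, 4449777 to 4454808) led in node with 144 FPKM (interval 140.5 to 148) and in stem with 174.1 (170.6 to 178), and had 52.02 (49.9 to 54.1) in blade. The blade was led by LOC_Os01g37130 at 92.7 FPKM, followed by LOC_Os04g37904 at 81.5, PP18 at 79.4, LOC_Os05g04360 at 68.4 and LOC_Os06g50380 at 58.7. PP18 (LOC_Os02g05630) has been linked in rice to drought and oxidative stress tolerance. It had 106 FPKM in node and 56.6 in stem, so that no comparison of it reached 2-fold. In node, the places after LOC_Os02g08364 went to LOC_Os03g04430 at 129.7 FPKM, LOC_Os01g19130 at 114.3, LOC_Os03g18150 at 111.6 and PP18. The stem had LOC_Os06g50380 at 126 FPKM, LOC_Os02g27220 at 117, LOC_Os04g37904 at 89.7 and LOC_Os05g04360 at 87.95. LOC_Os04g37904 was within 2-fold in every comparison, with 53.3 FPKM in node. No member reached 100 FPKM in blade, while 6 did in node and 3 in stem. The shares of all genes at that level were not computed, so these counts are not read as particular to the family.

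At the other end, 7 members stayed below 1 FPKM in all 3 tissues and were not compared. LOC_Os11g01790 had 0.406 FPKM in blade, 0.637 in node and 0.132 in stem, and LOC_Os12g01770 had 0.346, 0.401 and 0.0625. These lie at matching positions near the ends of chromosomes 11 and 12, in a segment that rice is known to carry in near-identical copies, so fragments of one could be assigned to the other. LOC_Os11g13820 had 0.328 FPKM in blade and 0.485 in node and was listed at 0 in stem. LOC_Os05g02110, LOC_Os03g16760, LOC_Os04g42260 and LOC_Os02g39480 had at most 0.214, 0.0951, 0.0434 and 0.0131 FPKM. Of these, LOC_Os04g42260 was listed at 0 in stem and LOC_Os02g39480 in node. No member was listed at 0 in all 3, as 36.3% of all genes were.

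Node versus blade asked how the joint differs from the photosynthetic blade. Of the 57 members compared, 3 passed 4-fold towards node (5.26%, against 12.3% of all 20097 genes compared) and 3 were 4-fold or more lower (5.26%, against 7.29%). The median log2 difference of the members was -0.0016, beside 0.13 for all genes. Their middle 50% lay between -0.43 and 0.89, and that of all genes between -0.59 and 1.07. The deposited intervals of the 2 tissues did not overlap for 49 members, where the share over all genes was 82.1%. In stem versus blade this held for 52 members (78.2% of all genes) and in node versus stem for 51 (74.3%).

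LOC_Os03g18150 (chromosome 3, 10163441 to 10165477) had 23.4 FPKM in blade (22.3 to 24.5), 111.6 in node (108.6 to 114.6) and 71.8 in stem (69.5 to 74.04). The blade was the low tissue and the node the high one, with a log2 difference of 2.21 between them, or 1.61 by library-scaled implied fragments, which is under 4-fold. LOC_Os03g04430 (chromosome 3, 2055441 to 2058976) kept the same order, with 28.5 FPKM in blade, 129.7 in node and 77.9 in stem. Its log2 difference in node versus blade was 2.15, and 2.19 by implied fragments. LOC_Os04g49490 was higher by 2.17 at a low level, with 0.127 FPKM in blade, 4.08 in node and 1.63 in stem. About 11 implied fragments lay behind its blade value and 133 behind its node value, a rise past 4-fold. By library-scaled implied fragments its difference was 1.76, under 4-fold. That scale adds 1 to each scaled value, which understates differences of low genes.

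Lower in node were LOC_Os04g25570, LOC_Os12g09640 and LOC_Os01g37130. LOC_Os04g25570 (chromosome 4, 14821182 to 14826775) had 50.3 FPKM in blade (47.9 to 52.7), 3.49 in node (3.095 to 3.89) and 4.67 in stem (4.23 to 5.10). The blade stood alone, with log2 differences of -3.51 in node and -3.18 in stem. By implied fragments, with 1 added to each scaled value, these were -2.36 and -1.95, the second just under 4-fold. LOC_Os12g09640 (chromosome 12, 5076202 to 5080920) had 18.3 FPKM in blade (16.7 to 20.01), 1.69 in node (1.12 to 2.26) and 0.0576 in stem (0 to 0.115). About 4 implied fragments supported the stem value, and the log2 differences were -2.85 in node and -4.19 in stem. LOC_Os01g37130 (chromosome 1, 20738583 to 20742431) had 92.7 FPKM in blade (89.5 to 95.8), 20.3 in node (18.9 to 21.8) and 23.98 in stem (22.7 to 25.2). Its log2 difference was -2.13 in node and -1.91 in stem, the second just under 4-fold. By implied fragments, at 3426, 747 and 1443, these were -2.14 and -1.34.

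Stem versus blade compared the stem axis with the blade. Here 1 member was higher by 4-fold or more (1.75%, against 6.43% of all genes) and 4 were lower (7.02%, against 6.52%). Of the 4, XB15 was not lower by implied fragments. Counting only calls whose implied fragments ran the same way, 3 were lower (5.26%, against 6.45% of all genes). The median log2 difference of the members was -0.08, beside -0.02 for all genes. The member higher was LOC_Os05g38290 of clade A, described with that group. LOC_Os02g55560 (chromosome 2, 34026273 to 34030302) was lower, with 32.2 FPKM in blade (30.9 to 33.6), 11.5 in node (10.4 to 12.6) and 5.80 in stem (5.25 to 6.34). By FPKM its values stepped down from blade to node to stem, with log2 differences of -1.41 and -2.29 from the blade. Its implied fragments, at 2357, 439 and 448, did not show the step from node to stem. By that measure the differences from the blade were -2.33 and -2.40. The remaining members lower were LOC_Os04g25570, LOC_Os12g09640 and XB15.

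XB15 (LOC_Os03g60650, chromosome 3, 34474694 to 34478370) is known in rice as a phosphatase that acts on the immune receptor kinase XA21. It had 25.7 FPKM in blade (23.4 to 27.99), 21.3 in node (19.1 to 23.5) and 4.82 in stem (4.41 to 5.24). By FPKM the stem was low, with a log2 difference of -2.20 from blade. The implied fragments did not show this, at 493 in blade, 375 in node and 548 in stem. Its direction is therefore uncertain.

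No member reached 4-fold in node versus stem, where 6.82% of all genes were higher in node and 2.30% lower. By FPKM the largest difference towards node was that of XB15, at 1.94, but its implied fragments gave -0.40, towards stem. The next was LOC_Os03g10950 at 1.71, with 2.53 by implied fragments, and the largest towards stem was that of LOC_Os09g15670, at -1.57. The median of the members was 0.20, beside 0.16 for all genes. In all, 9 of the 57 (15.8%) reached 4-fold in at least 1 of the 3 comparisons, against 25.0% of all genes compared. Among genes that reached 10 FPKM somewhere the shares were 16.3% of 49 members and 29.4% of all genes. The median ratio of the highest to the lowest tissue, however, was 2.21 for the members and 2.20 for all genes, so the medians were alike while the share past 4-fold was lower among members. The 3 comparisons share libraries and are not independent.

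**Figure D2:**
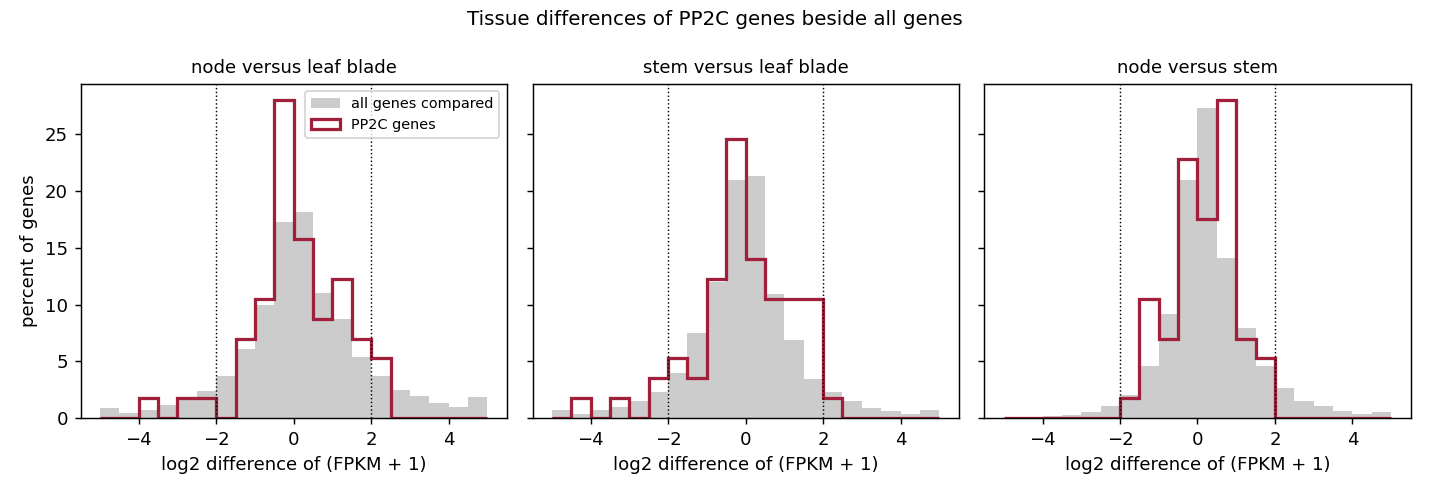
Percent of genes by log2 difference of (FPKM + 1), in steps of 0.5, for the 57 PP2C genes (red outline) and all 20097 genes compared (grey), with values beyond 5 drawn in the last step and dotted lines at 4-fold. The PP2C outline stays within the dotted lines in node versus stem and passes them for 6 genes in node versus blade and 5 in stem versus blade.

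Because so few members passed 4-fold, their patterns were also sorted at 2-fold, a threshold chosen after the data were seen. The counts at 2-fold were 14 higher (24.6%, against 26.5% of all genes) and 7 lower (12.3%, against 17.1%) in node versus blade. In stem versus blade they were 13 higher (22.8%, against 16.7%) and 9 lower (15.8%, against 18.0%), and in node versus stem 7 higher (12.3%, against 19.4%) and 7 lower (12.3%, against 8.99%). In all, 34 members reached 2-fold somewhere (59.6%, against 56.4%), and 23 stayed within it in all 3 comparisons (40.4%, against 43.6%).

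The blade was 2-fold or more below both other tissues for 7 members (12.3%, against 11.7% of all genes). These were LOC_Os03g18150, LOC_Os03g04430, LOC_Os04g49490 and LOC_Os02g08364 above, the clade A genes LOC_Os01g40094 and LOC_Os03g16170, and LOC_Os01g19130. LOC_Os01g19130 had 30.04 FPKM in blade, 114.3 in node and 66.5 in stem, with a log2 difference of 1.89 in node versus blade, just under 4-fold. By implied fragments that difference was 2.33, past 4-fold. The blade was 2-fold or more above both for 4 members (7.02%, against 12.3%), the LOC_Os04g25570, LOC_Os12g09640, LOC_Os01g37130 and LOC_Os02g55560 genes already described. Of these, LOC_Os04g25570 and LOC_Os12g09640 were 4-fold or more above each of the other tissues, where 4.56% of all genes predominated in blade. No member predominated in that sense in node (5.26% of all genes) or in stem (0.921%).

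The node was above both other tissues by 2-fold or more for 3 members (5.26%, against 10.6%). LOC_Os03g55320 had 41.6 FPKM in blade, 106 in node and 33.1 in stem. LOC_Os05g29030, whose locus overlapped another expressed row, had 26.9, 61.96 and 23.2 FPKM. LOC_Os10g39540 had 17.7, 48.96 and 20.4 FPKM. In each of these the blade and the stem were within 2-fold of each other. No member was lower in node than in both others by 2-fold (2.40% of all genes).

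The stem was above both by 2-fold or more for 5 members (8.77%, against 2.89%) and below both for 3 (5.26%, against 3.09%). Without genes whose implied fragments ran the other way, the counts were 3 (5.26%, against 2.48%) and 2 (3.51%, against 2.83%). LOC_Os02g27220 had 35.9 FPKM in blade (33.7 to 38.07), 49.5 in node (46.99 to 52.02) and 117 in stem (113.5 to 121), and its implied fragments kept that order, at 1101, 1552 and 3732. The clade A genes LOC_Os05g38290 and LOC_Os09g15670 were also of this kind. For the other two, LOC_Os01g74530 and LOC_Os03g25600, the implied fragments ran the other way. Below both in stem were XB15, LOC_Os03g10950 and LOC_Os12g39120. LOC_Os03g10950 had 16.2 FPKM in both blade and node and 4.27 in stem. LOC_Os12g39120 had 11.4, 8.78 and 2.93 FPKM. Their implied fragments were also the fewest in stem, at 191 and 279.

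The other 12 members reached 2-fold in at least 1 comparison without 1 tissue standing apart from both others. This class held 13.4% of all genes and 21.1% of members, and includes the clade A genes LOC_Os05g46040 and LOC_Os05g49730. Among the rest LOC_Os06g50380 stepped up from 58.7 FPKM in blade to 83.7 in node and 126 in stem, although its implied fragments were fewest in node, at 5316, 4185 and 12115. LOC_Os05g04360 was low in node, with 36.9 FPKM against 68.4 in blade and 87.95 in stem. LOC_Os03g61690 and LOC_Os02g46080 were high in node, with 15.4 and 11.2 FPKM there against 4.21 and 3.15 in blade, and 7.54 and 5.18 in stem. LOC_Os07g37890 had 24.5 FPKM in node against 11.8 in blade and 15.5 in stem, and LOC_Os11g22404 had 3.18 against 0.583 and 1.23. Going the other way, LOC_Os08g39100, LOC_Os01g36080 and LOC_Os07g02330 had 30.8, 26.0 and 16.8 FPKM in blade against 14.1, 11.8 and 7.12 in node. LOC_Os07g45170 had 19.96 FPKM in blade, 14.5 in node and 8.50 in stem.

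Of 10 identifiers listed for clade A, 8 were members, and more of these 8 reached 2-fold between stem and blade than between node and blade. In stem versus blade 4 of the 8 were higher by 2-fold or more and 1 was lower, where 16.7% and 18.0% of all genes were, with a median log2 difference of 1.01 beside -0.02 for all genes. In node versus blade 2 were higher and none lower (26.5% and 17.1% of all genes), and the median was 0.03 beside 0.13. In node versus stem 3 were lower and none higher (8.99% and 19.4% of all genes), with a median of -0.30 beside 0.16. Only LOC_Os05g38290 reached 4-fold, in stem versus blade.

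LOC_Os01g40094 (chromosome 1, 22617780 to 22624147) was the most abundant of the 8 in node and stem. It had 26.3 FPKM in blade (25.3 to 27.4), 66.6 in node (64.9 to 68.4) and 86.8 in stem (84.9 to 88.7). The intervals were apart, and blade was the low tissue with log2 differences of 1.31 and 1.68. LOC_Os03g16170 (chromosome 3, 8921370 to 8923437) kept that order at a lower level, with 8.68 FPKM in blade (8.002 to 9.36), 28.9 in node (27.6 to 30.1) and 34.02 in stem (32.7 to 35.3). LOC_Os05g38290 (chromosome 5, 22450676 to 22452774) had 3.85 FPKM in blade (3.33 to 4.36), 7.96 in node (7.14 to 8.78) and 21.2 in stem (20.1 to 22.3). It stepped up across the 3 tissues, and its log2 difference was 2.19 in stem versus blade and -1.31 in node versus stem.

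LOC_Os09g15670 (chromosome 9, 9567471 to 9568905) was high in stem alone, with 11.6 FPKM in blade (10.7 to 12.5), 8.82 in node (8.04 to 9.61) and 28.2 in stem (26.9 to 29.5). LOC_Os05g46040 was the most abundant clade A gene in blade and had 31.1 FPKM there (29.6 to 32.6), 23.06 in node (21.6 to 24.5) and 55.1 in stem (52.2 to 58.1). Its implied fragments were fewer in stem than in blade, at 1397 against 1646, so its order between those tissues is uncertain. LOC_Os05g51510 had 22.01 FPKM in blade (20.5 to 23.5), 18.2 in node (17.4 to 19.1) and 14.4 in stem (13.6 to 15.1), but implied fragments of 853, 1754 and 1524. Its order is therefore uncertain too.

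LOC_Os01g46760 was level, with 5.98 FPKM in blade, 7.71 in node and 5.70 in stem, and the blade and stem intervals (5.38 to 6.57 and 5.13 to 6.27) overlapped. LOC_Os05g49730 was low throughout, with 1.79 FPKM in blade (1.45 to 2.12), 0.676 in node (0.465 to 0.887) and 0.149 in stem (0.0546 to 0.243), and was the 1 clade A gene lower in stem by 2-fold or more. The ninth listed identifier, LOC_Os01g62760, appeared only inside a row merged with 2 neighbours (chromosome 1, 36343948 to 36358027 in the blade table). That row had 71.2 FPKM in blade, 188 in node and 133.5 in stem, which cannot be divided among its 3 genes. The tenth, LOC_Os04g08560, was found in no row of any of the 3 libraries, so no value is given for it.

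**Figure D3:**
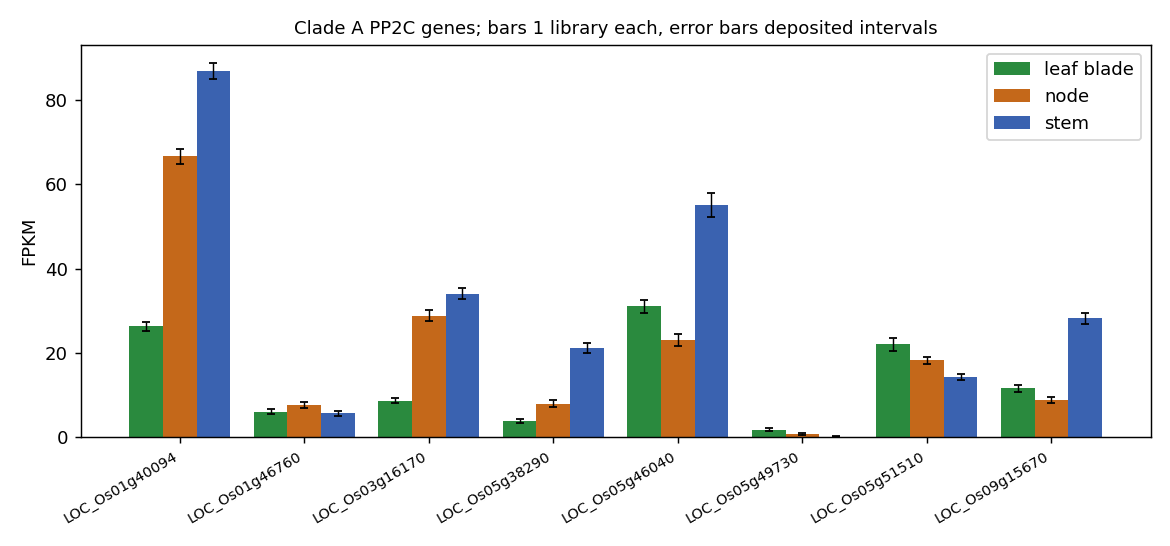
FPKM of the 8 clade A genes in the blade, node and stem libraries, with error bars for the deposited intervals, which were read as covering counting error only. The stem bar is the tallest for 5 genes and the blade bar for LOC_Os05g51510 and LOC_Os05g49730.

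FPKM and implied fragments were compared for every member, because the 2 measures need not run together. The implied number is read from the width of the interval, so an interval widened by anything else than counting lowers it. Of 21 members at 2-fold or more in node versus blade, none had implied fragments the other way (3.57% of all such genes). In stem versus blade 3 of 22 did (13.6%, against 4.98%) and in node versus stem 3 of 14 (21.4%, against 5.06%). These were the same 3 genes, XB15, LOC_Os01g74530 and LOC_Os03g25600, and all involve the stem library. LOC_Os01g74530 had 18.5 FPKM in blade, 19.8 in node and 44.96 in stem, with implied fragments of 2185, 2246 and 1495. LOC_Os03g25600 had 3.95, 7.75 and 17.2 FPKM with implied fragments of 465, 955 and 382. The cause was not tested.

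**Figure D4:**
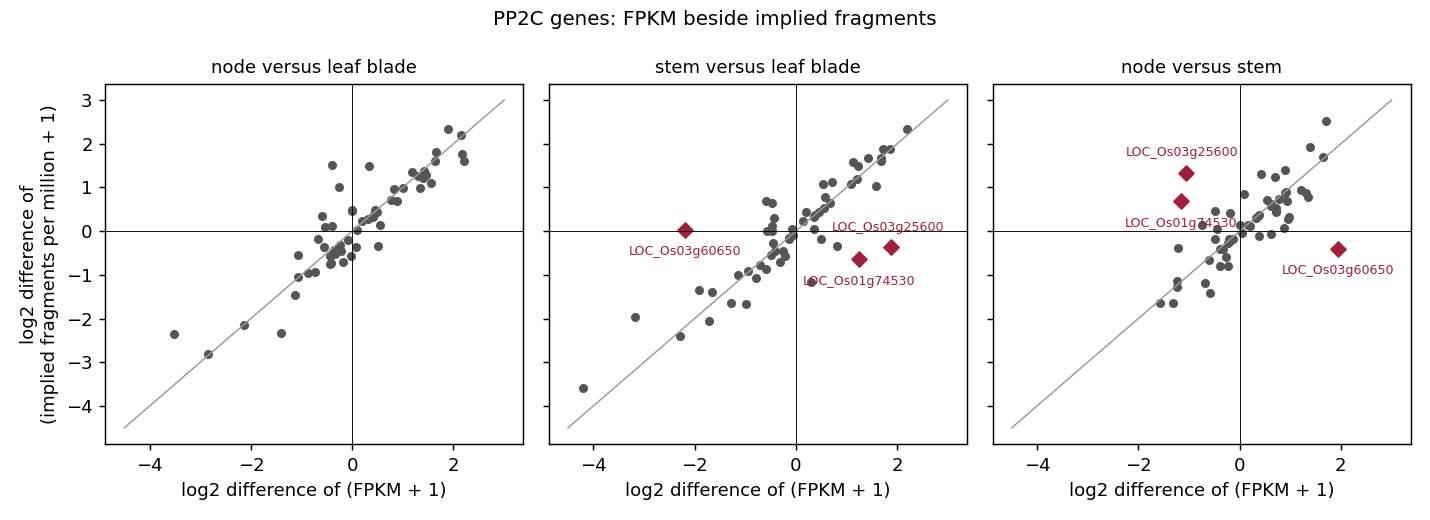
Log2 difference of (FPKM + 1) against log2 difference of (library-scaled implied fragments + 1) for the 57 PP2C genes in each comparison, with the line of equality in grey. Red diamonds mark genes at 2-fold or more by FPKM whose implied fragments went the other way, 3 in each comparison with the stem and none in node versus blade, with XB15 (LOC_Os03g60650) barely above 0 in stem versus blade.

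The members were scattered over all 12 chromosomes, with 10 on chromosome 2, 9 on chromosome 3, 8 on chromosome 5 and 1 on chromosome 8. The closest neighbours formed 3 pairs. LOC_Os06g33530 and LOC_Os06g33549 were 1777 bases apart, with 7.85 and 6.97 FPKM in blade, 5.57 and 10.2 in node, and 4.15 and 11.6 in stem. The first was highest in blade and the second in stem, and both stayed within 2-fold. LOC_Os02g39410 and LOC_Os02g39480 were 38.9 kb apart and differed in level, with 7.22 against 0.0131 FPKM in blade. LOC_Os10g39540, one of the node-high genes, lay 163 kb from LOC_Os10g39780, which had 21.3 FPKM in blade, 31.7 in node and 27.5 in stem. The loci of 9 members overlapped another row above 0 in some library, among them LOC_Os05g29030, LOC_Os03g61690 and LOC_Os01g36080. None of the 9 was among the members called at 4-fold.

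Genes on either side of clade A in the abscisic acid pathway were described from lists of identifiers. Of 13 PYL receptor identifiers, 11 were found with a single identifier in every library and 4 reached 1 FPKM, and 1 of the 4 was lower by 4-fold, in stem versus blade, where 6.52% of all genes were. This gene, LOC_Os03g18600, had 114 FPKM in blade, 65.7 in node and 24.1 in stem. LOC_Os05g12260 was level at 103, 84.2 and 93.96 FPKM, LOC_Os10g42280 had 24.7, 43.4 and 33.1, and LOC_Os05g39580 had 0.878, 0.553 and 1.53. The highest tissue was not the same in all 4, as in clade A. LOC_Os02g15640 had 64.1 FPKM in blade and 144 in stem and was merged with a neighbour in node.

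Of the SnRK2 kinases SAPK1 to SAPK10, 9 were compared, and SAPK1, SAPK5, SAPK8 and SAPK9 stayed within 2-fold in every comparison. SAPK4 passed 4-fold upwards by FPKM in node and in stem, with 14.9 FPKM in blade, 69.5 in node and 123 in stem. Its implied fragments, at 1287, 2260 and 4443, rose by less than 4-fold in both. SAPK6 was low outside the blade, with 103 FPKM there, 28.1 in node and 25.9 in stem, log2 differences of -1.84 and -1.95. Its implied fragments, at 2757, 1476 and 1346, fell by less than its FPKM in both. SAPK3 had 70.6 FPKM in stem against 27.1 in blade and 28.4 in node, SAPK2 had 169 in node against 88.4 and 63.9, and SAPK7 had 35.4 in node against 11.9 and 15.9. None of the 5 bZIP factors compared reached 4-fold in any comparison. Among them bZIP72 had 25.2 FPKM in blade, 58.1 in node and 45.99 in stem. Its implied fragments, at 2084, 2097 and 1212, did not show this order. TRAB1 was level at 19.2, 17.4 and 18.4 FPKM.

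Several enzymes that make or break down the hormone passed 4-fold. NCED1, a cleavage enzyme of abscisic acid synthesis, had 391 FPKM in blade, 5.18 in node and 13.4 in stem. The catabolic hydroxylases ABA8OX1 and ABA8OX2 went the other way, with 13.1 and 1.41 FPKM in blade, 92.4 and 24.4 in node, and 24.7 and 8.61 in stem. The third hydroxylase, ABA8OX3, was highest in blade at a low level, with 2.04 FPKM against 1.24 in node and 0.01096 in stem. NCED4 had 0.0515 FPKM in blade, 4.83 in node and 3.76 in stem. Of the 7 genes of synthesis and breakdown, 3 were higher and 1 lower by 4-fold in node versus blade (12.3% and 7.29% of all genes), and 1 was higher and 1 lower in stem versus blade (6.43% and 6.52%). Of 5 responsive genes compared, 3 were higher in node (RAB16A, DIP1 and SALT) and 2 in stem (DIP1 and SALT) than in blade, none lower, beside those same shares of all genes. SALT, a jacalin-like lectin gene, had 0.735 FPKM in blade, 16.9 in node and 68.9 in stem. RAB16A had 3.70 FPKM in node and at most 0.0410 elsewhere.

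**Figure D5:**
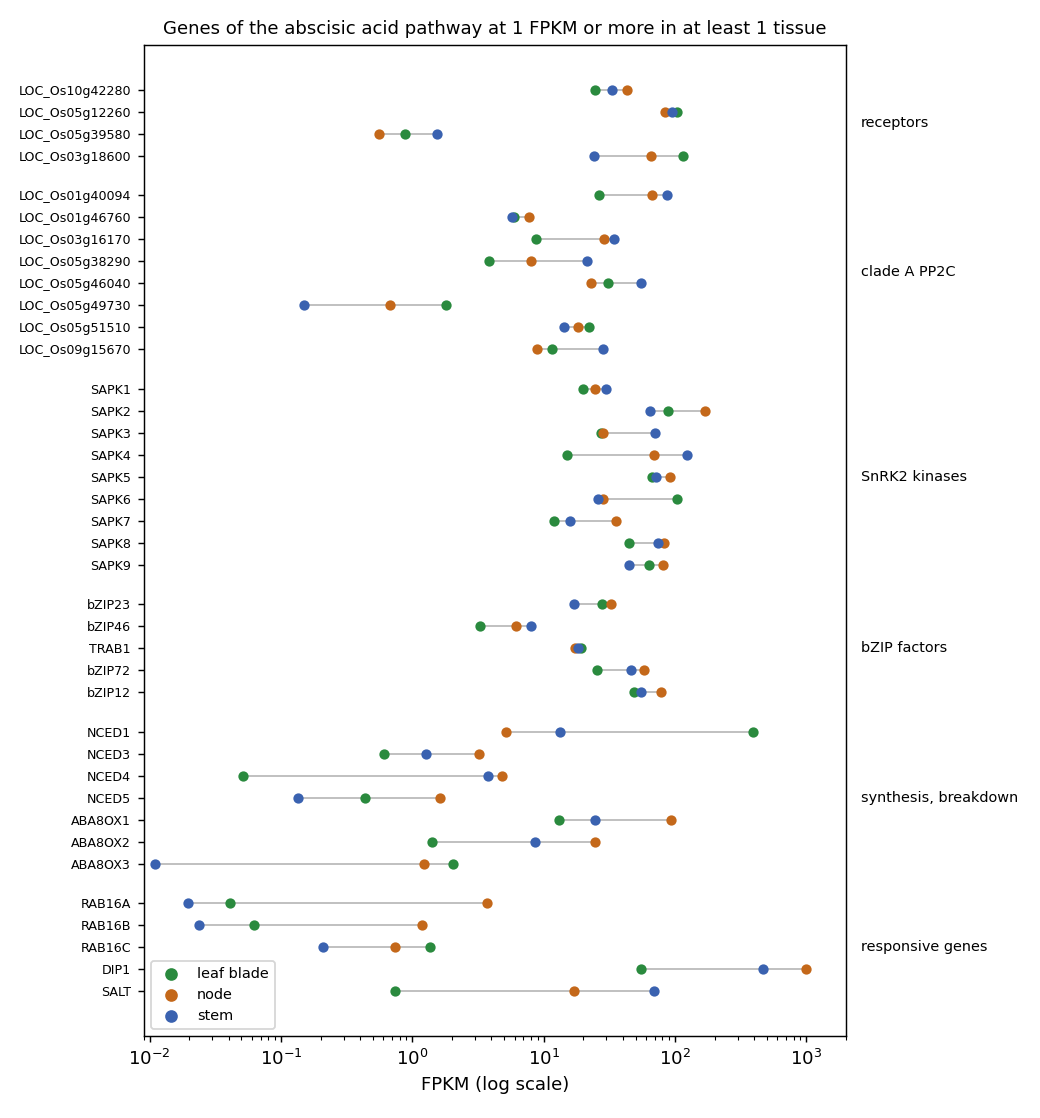
FPKM on a log axis of the abscisic acid pathway genes that reached 1 FPKM somewhere, by list, with 1 point per library and a grey line joining the tissues. Lines are short for bZIP factors, moderate for clade A and the SnRK2 kinases, and long for synthesis, breakdown and responsive genes, with NCED1 alone far to the right in blade.

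Other phosphatase families, chosen by description, were also counted. Leaving out genes listed at 0 in either tissue, 1 of 44 other serine/threonine phosphatases compared was higher by 4-fold and 2 were lower in node versus blade (12.3% and 7.29% of all genes), 0 and 2 in stem versus blade (6.43% and 6.52%), and none in node versus stem. The shares of all genes, and the 44, include genes listed at 0. With such genes counted, 2 were higher in node versus blade and 1 in stem versus blade, and the numbers lower stayed the same. LOC_Os10g25430 stood farthest down in node, with 17.5 FPKM in blade against 0.208 in node, and LOC_Os09g36290 was listed at 0 in blade with 26.4 FPKM in node and 41.4 in stem. Of 21 tyrosine and dual specificity phosphatases, 1 was higher in node versus blade and no other difference passed 4-fold with genes listed at 0 left out. LOC_Os04g51570 was listed at 0 in stem, and LOC_Os12g02120 in both node and stem. The PP2C shares of 5.26% higher and 5.26% lower in node versus blade were not tested against these lists.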

How the data were processed

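Per the file headers, each deposited table gives FPKM by gene, flanked by lower and upper bounds, with the gene's description and locus. Of tools, the submitters' processing notes name TopHat, without its version. The sources used here give neither the quantification program nor the genome build. FPKM depends on the length model and on the most abundant genes. From the deposited bounds, the number of fragments was implied by reading the half-width as 2 × FPKM / √n. It came out whole within 0.02 for 49.2% to 49.7% of rows under 200 fragments, against 4% by chance, so no count test was run.

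Rows with 1 identifier that occurred once in every table (51597 genes) were kept, and the 20097 reaching 1 FPKM somewhere were compared by log2 ratios of (FPKM + 1), a pseudocount that understates differences of low genes. Calls were made at 4-fold. An FPKM of 0 may be a failed estimate, so no fold of a named gene is given against it, though shares of all genes include such genes. Fold calls were also run on counts simulated from the leaf blade library, with planted changes beyond 4-fold in genes at 10 FPKM or more. That simulation held counting error only, so it cannot show how the calls hold between plants or for low genes. Locus starts were taken to count from 0, and 1 was added. The reason was that the difference between end and start divided by 3 for 42.2% of leaf blade loci against 33.3% by chance. Coordinates are those of the leaf blade table. The locus bounds were the same in all 3 libraries for 43 of the 64 members. Among members called at 4-fold, they differed for LOC_Os12g09640, LOC_Os02g55560, LOC_Os05g38290 and XB15. The effect of differing bounds on FPKM was not tested. Whether counting used strand is likewise not given.

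The members, lists and tests were chosen with earlier results of these data known. Named genes were members at 10 FPKM or more with a 4-fold difference, the 5 most abundant per tissue, the extremes of each comparison, clade A, XB15 and PP18, and the 2 highest and lowest of each other list; further members were named after their values were seen. None of the 64 identifiers was found in a RefSeq table of a different rice assembly, so no sequences are shown. Python 3.11.15 and pandas 2.3.3 were used.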

Additional observations from a re-analysis of the deposited data

How the results depend on the processing

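Counts of members at 4-fold moved with the pseudocount. With 0.1 FPKM, 3 members were higher in stem versus blade (5.26%, against 12.03% of all genes) and 2 in node versus stem (3.51%, against 13.3%). With 5 FPKM, 1 was lower in node versus blade (1.75%, against 3.34%), and 0 were higher (2.90% of all genes) and 2 lower (3.51%, against 2.70%) in stem versus blade. At a threshold of 2-fold, chosen after seeing the data, 14 were higher and 7 lower in node versus blade, 13 and 9 in stem versus blade, and 7 and 7 in node versus stem. The shares of all genes at 2-fold were given beside these counts in the Results. With shares of implied fragments, 1 member was higher in node versus stem (1.75%, against 7.55%), the median in node versus blade was 0.23 and not -0.0016, and XB15 (LOC_Os03g60650) in stem versus blade was 0.0368 and not -2.20; the cause was not tested. Implied fragments were compared with 1 added to each library-scaled value. By both measures so taken, 1 of the 3 members higher in node versus blade (LOC_Os03g04430) passed 4-fold (1.75%, against 10.4% of all genes). All 3 lower there did (5.26%, against 6.11%). In stem versus blade the 1 member higher did (1.75%, against 5.22%). Of the 4 lower there, 2 did, LOC_Os02g55560 and LOC_Os12g09640 (3.51%, against 5.30%). LOC_Os04g25570 fell just short there by implied fragments, at -1.95. In node versus blade the added 1 kept LOC_Os04g49490 short, with 11 implied fragments in blade and 133 in node. The filters, the rescaling without the 50 most abundant genes and, both added after seeing the data, leaving out members with overlapping loci or calls whose implied fragments ran the other way left every count of members within 1.5 times of that reported. Rescaling moved the median of all genes in node versus blade from 0.13 to 0.04. No paired analysis was possible because each tissue had 1 library. Counting intervals say nothing of variation between plants.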
